A study of Mus musculus with 16 samples.

Results

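The lipocalins are a family of small secreted carriers, and 10 of their genes were followed in mouse liver: Lcn2, Apod, Apom, Rbp4, Ambp, C8g, Orm1, Orm2, Orm3 and Ptgds. They were chosen by name, as the gene probes whose annotated symbol is one of these, among the 24357 genes tested in all. The array holds 12 probes for them, of which 11 passed the filter on dim probes, and all 10 genes were tested. Where a gene had 2 probes, as Apod and C8g did, the one with the higher mean over all arrays was used.

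The livers came from male mice of the inbred BALB/c strain, raised on regular chow to an age of 6 to 8 weeks before the 4 weeks of treatment, either wild type (WT) or homozygous for a deletion of Lcn2 (Lcn2-/-). The deletion was made in mice of mixed 129 and C57BL/6 origin that were then bred back to BALB/c. CCl4, a solvent that becomes a toxic radical in hepatocytes and, in repeated doses, causes fibrosis, was diluted in corn oil and injected into the abdomen at 0.5 ml/kg, 2 times per week for 4 weeks, with livers taken 48 h after the last dose. Control mice received corn oil. WT livers filled 4 control and 5 CCl4 arrays, and Lcn2-/- livers 3 control and 4 CCl4 arrays. The labels number the replicates but do not say that each is a separate animal, so p values measure the spread between these samples.

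Lipocalins share a barrel-shaped fold that closes around a small hydrophobic molecule. Lipocalin 2, the product of Lcn2, binds iron-carrying siderophores, is stored in neutrophil granules and is made by hepatocytes in the acute phase of inflammation. The orosomucoids (Orm1, Orm2 and Orm3, also named alpha-1-acid glycoproteins) are acute-phase plasma proteins of the liver that bind drugs and lipids. Rbp4 carries retinol, Apom carries sphingosine 1-phosphate on lipoproteins, Ambp encodes alpha-1-microglobulin and bikunin, C8g is a chain of complement component C8, Apod carries lipids such as arachidonic acid, and Ptgds makes prostaglandin D2. The question put to the arrays was whether the other members followed the loss of Lcn2, or were higher where it was missing, with and without CCl4.

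Levels are quantile-normalized signals on the log2 scale, where a difference of 1 is a doubling, and the level of a probe is compared only with itself across arrays. A gene counts as past the threshold when its p value from limma, adjusted by Benjamini-Hochberg over all genes tested, is under 0.05. The share of spots well above background ran from 51.6% to 60.9% over the arrays. The 15 hepatocyte markers tested, such as Alb and Apob, were well above background on all 16 arrays, with a mean level between 17.81 and 18.32. In controls, the arrays WT control 3 and Lcn2-/- control 3 stood apart: the mean level of 12 neutrophil markers was 10.31 and 10.97 on them, against 7.71 to 8.82 on the other controls, and that of 10 macrophage markers was 13.90 and 13.75, against 11.74 to 12.62. Slide and treatment were almost inseparable, since slide 1 held all controls and WT CCl4 1 and slide 2 the other CCl4 arrays. Every Lcn2-/- array lay in the lower row of its slide, and WT CCl4 1 was the only WT array there. In whole liver, fewer cells of a type and less RNA per cell cannot be told apart.

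The orosomucoids are 3 of the 4 members that fell under CCl4 in WT, so their 60-base probes are shown, 5′ to 3′, with the mm9 position each has in the files. The Orm1 probe (chr4:63006483-63007090, from base 320 of its transcript) and the Orm3 probe (chr4:63018910-63020393, from base 561) span an intron, while the Orm2 probe (chr4:63024979-63025038, from base 396) lies within 1 stretch of the genome.
Orm1: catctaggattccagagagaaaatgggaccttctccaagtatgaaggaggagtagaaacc
Orm2: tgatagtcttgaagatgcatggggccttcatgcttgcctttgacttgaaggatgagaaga
Orm3: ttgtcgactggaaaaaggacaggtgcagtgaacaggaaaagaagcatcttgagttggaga
The longest run of letters that any pair of these probes shares on the same strand is 7 bases, between Orm1 and Orm2. The 3 genes lie side by side and are close copies of each other, and whether 1 probe also binds the transcript of another Orm gene was not tested.

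The 250 bases upstream of the start were compared for the 9 members that have an entry in the RefSeq promoter table (GRCm38.p6). Orm2 and Orm3 were identical at 85.9% of aligned positions, against 35.4% to 51.9% for the 35 other pairs of members. The last 150 bases before the start of Orm2 (chr4:63362299-63362448, + strand) and Orm3 (chr4:63356008-63356157, + strand) are shown because these genes changed in the same direction under CCl4, with matches to TTGCNNAA (the core bound by C/EBP factors, which act in the acute phase) and to TATAAA in capitals. The 100 bases from 250 to 151 before the start of Lcn2 (chr2:32387890-32387989, - strand) are shown for its own match to TTGCNNAA.
Orm2: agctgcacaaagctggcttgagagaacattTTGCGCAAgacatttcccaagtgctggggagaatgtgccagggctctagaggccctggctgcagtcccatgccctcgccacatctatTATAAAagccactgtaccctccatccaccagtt
Orm3: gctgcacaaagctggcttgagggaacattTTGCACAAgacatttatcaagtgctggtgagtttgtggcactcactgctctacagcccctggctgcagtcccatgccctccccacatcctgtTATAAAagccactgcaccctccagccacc
Lcn2: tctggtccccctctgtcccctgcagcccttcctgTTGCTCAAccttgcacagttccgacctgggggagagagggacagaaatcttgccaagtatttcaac
Searched on both strands over 250 bases, TTGCNNAA was found upstream of 4 of the 9 members (Lcn2, Orm2, Orm3 and Rbp4) and in 9.56% of all promoters in the table. TATAAA was found in 3 of the 9 (Orm2, Orm3 and Rbp4) and in 12.4% of all, and TTCNNNGAA, the core bound by STAT factors, in 0 of the 9 and 7.02% of all. Members were counted by gene if any of their entries matched, while the shares of all are by entry. Rbp4 and C8g each have a further entry, in which no motif matched, so counts and shares are not on the same footing. The motifs were not found to overlap in the stretches shown. These are matches of letters and say nothing of binding.

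Lcn2 itself was read first, since it checks the genotype labels. The WT controls measured 13.80, 14.59, 17.57 and 14.69, the Lcn2-/- controls 10.46, 11.04 and 11.53. Under CCl4 the WT arrays measured 14.38, 16.49, 15.07, 14.22 and 14.28, and the Lcn2-/- arrays 12.25, 10.60, 11.59 and 11.80. No Lcn2-/- array reached the lowest WT array, and WT control 3 was the highest of all. Lcn2 was lower in Lcn2-/- by −4.15 in controls (SE 0.761, limma adjusted p 0.0214) and by −3.33 under CCl4 (SE 0.668, limma adjusted p 0.0394). Taken over both treatments, the mean difference was −3.74 (SE 0.506, limma adjusted p 0.0012). The probe (chr2:32240199-32240258, mm9, from base 751 of the transcript) was still well above background on 3 of 3 Lcn2-/- controls and 4 of 4 Lcn2-/- CCl4 arrays. Which part of the gene was deleted is not given in the sources used here, so it is not known whether the probe lies in it.

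The call under CCl4 was close to the threshold and was kept in 3 of 16 fits that each left out 1 array, with limma adjusted p values from 0.004 to 0.107. In controls it was lost without Lcn2-/- control 1 (limma adjusted p 0.116) and without Lcn2-/- control 2 (limma adjusted p 0.0751). The mean difference over both treatments was kept in all 16 of those fits. The replicate block fitted the replicate number as a fixed factor over all arrays, although the labels do not say that numbers pair arrays. Under it the difference in controls was −4.27 (limma adjusted p 0.0636). With the row of the slide as a block every call of Lcn2 between genotypes was lost, the mean difference being −3.16 (limma adjusted p 0.466). Of all genes, those past the threshold over both treatments fell with that block from 566 to 82. The call under CCl4 was also lost with slide as a fixed block and with the replicate block.

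The 9 other members were then compared between genotypes, the direct test of whether they follow or replace Lcn2. None of the 9 passed the threshold in controls, under CCl4 or over both treatments. At an unadjusted p under 0.05 limma gave 1 of the 9 in controls (Orm3), 1 under CCl4 (Ptgds) and 2 over both treatments (Orm3 and Ptgds), where 8.31%, 13.6% and 16.7% of all genes were under it. With Lcn2 counted, 1 of 10 members passed in each of the 3 comparisons, where 0.517% of all genes passed in controls, 0.649% under CCl4 and 2.32% over both treatments. The median difference of the 9 was −0.05 in controls and 0.11 under CCl4, against −0.01 for all genes in both.

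**Figure D1:**
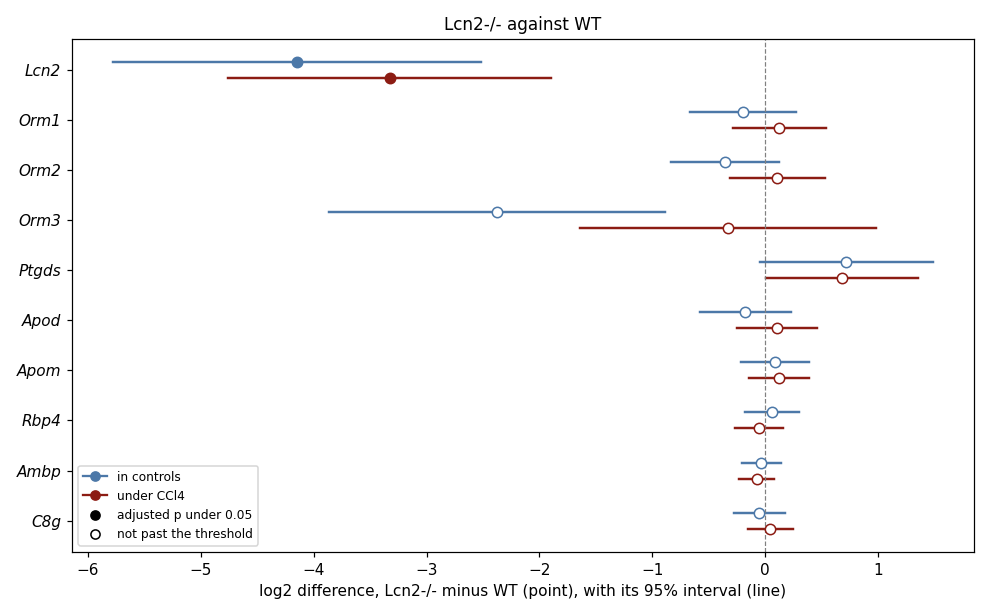
Difference between Lcn2-/- and WT (x axis, log2, Lcn2-/- minus WT) for each of the 10 lipocalin genes (y axis), in controls (blue) and under CCl4 (dark red); points are limma estimates, lines are 95% intervals and filled points passed the adjusted threshold. The filled points are those of Lcn2, at −4.15 and −3.33, and the interval of Orm3 in controls, from −3.87 to −0.88, lies below 0 without passing.

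Orm3, an orosomucoid, had the largest estimated genotype difference among the 9, in controls, and it did not pass. The WT controls measured 12.85, 14.22, 13.95 and 11.30, and the Lcn2-/- controls 9.72, 9.85 and 12.55. Lcn2-/- controls 1 and 2 lay below every WT control, while Lcn2-/- control 3, an array with high neutrophil and macrophage markers, lay among them. The difference was −2.37 (95% interval −3.87 to −0.88, limma adjusted p 0.209), and −2.54 with the replicate block (limma adjusted p 0.29). Without Lcn2-/- control 3 it was −3.30 and passed (limma adjusted p 0.0254), as it did with array weights (−2.94, limma adjusted p 0.0055). Array weights also raised the number of all genes past the threshold between genotypes in controls from 126 to 1253, so that pass is not particular to Orm3. Without both controls numbered 3 it was −3.01 (limma adjusted p 0.0554). Under CCl4 the WT arrays measured 10.71, 11.43, 9.98, 10.67 and 10.75 and the Lcn2-/- arrays 10.23, 10.36, 10.20 and 10.72. These groups overlapped, with a difference of −0.33 (95% interval −1.64 to 0.98, limma adjusted p 0.844).

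The neighbours Orm1 and Orm2 had smaller genotype differences. For Orm1 the WT controls measured 17.00, 17.29, 17.26 and 16.57, and the Lcn2-/- controls 16.49, 16.67 and 17.33. For Orm2 the WT controls measured 17.35, 17.91, 17.89 and 16.98, and the Lcn2-/- controls 16.95, 16.97 and 17.61. In both genes Lcn2-/- control 3 was the highest Lcn2-/- control, as for Orm3, and the groups overlapped. The differences in controls were −0.20 for Orm1 (95% interval −0.67 to 0.27, limma adjusted p 0.994) and −0.35 for Orm2 (95% interval −0.83 to 0.13, limma adjusted p 0.825). Under CCl4 they were 0.12 for Orm1 (95% interval −0.29 to 0.53) and 0.11 for Orm2 (95% interval −0.31 to 0.53).

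Ptgds, the prostaglandin D2 synthase, was the member whose levels were nominally higher in Lcn2-/-. The WT controls measured 10.11, 10.44, 9.86 and 10.67, and the Lcn2-/- controls 10.71, 11.09 and 11.16. The control groups did not overlap, with WT control 4 just below Lcn2-/- control 1. Under CCl4 the WT arrays measured 10.43, 10.10, 10.57, 12.01 and 11.27, and the Lcn2-/- arrays 11.79, 11.66, 11.45 and 11.31. Here WT CCl4 4 was the highest of all 16 arrays and lay above the whole Lcn2-/- group, while the other 4 WT arrays lay below it. The difference was 0.72 in controls (95% interval −0.05 to 1.48, limma adjusted p 0.657), 0.68 under CCl4 (95% interval 0.01 to 1.35, limma adjusted p 0.361) and 0.70 over both treatments (95% interval 0.19 to 1.21, limma adjusted p 0.151). With the replicate block the difference in controls was 0.87 (limma adjusted p 0.496). With the row of the slide as a block it was 1.27 in controls, 1.12 under CCl4 and 1.20 over both treatments, none past the threshold. Without WT CCl4 4 the difference over both treatments was 0.84 and passed (limma adjusted p 0.0302). The Ptgds probe (chr2:25322232-25322291, mm9, from base 746 of its transcript) lies 6.92 Mb from the Lcn2 probe on the same chromosome. Whether sequence of the strain in which the deletion was made remains at this distance was not tested.

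**Figure D2:**
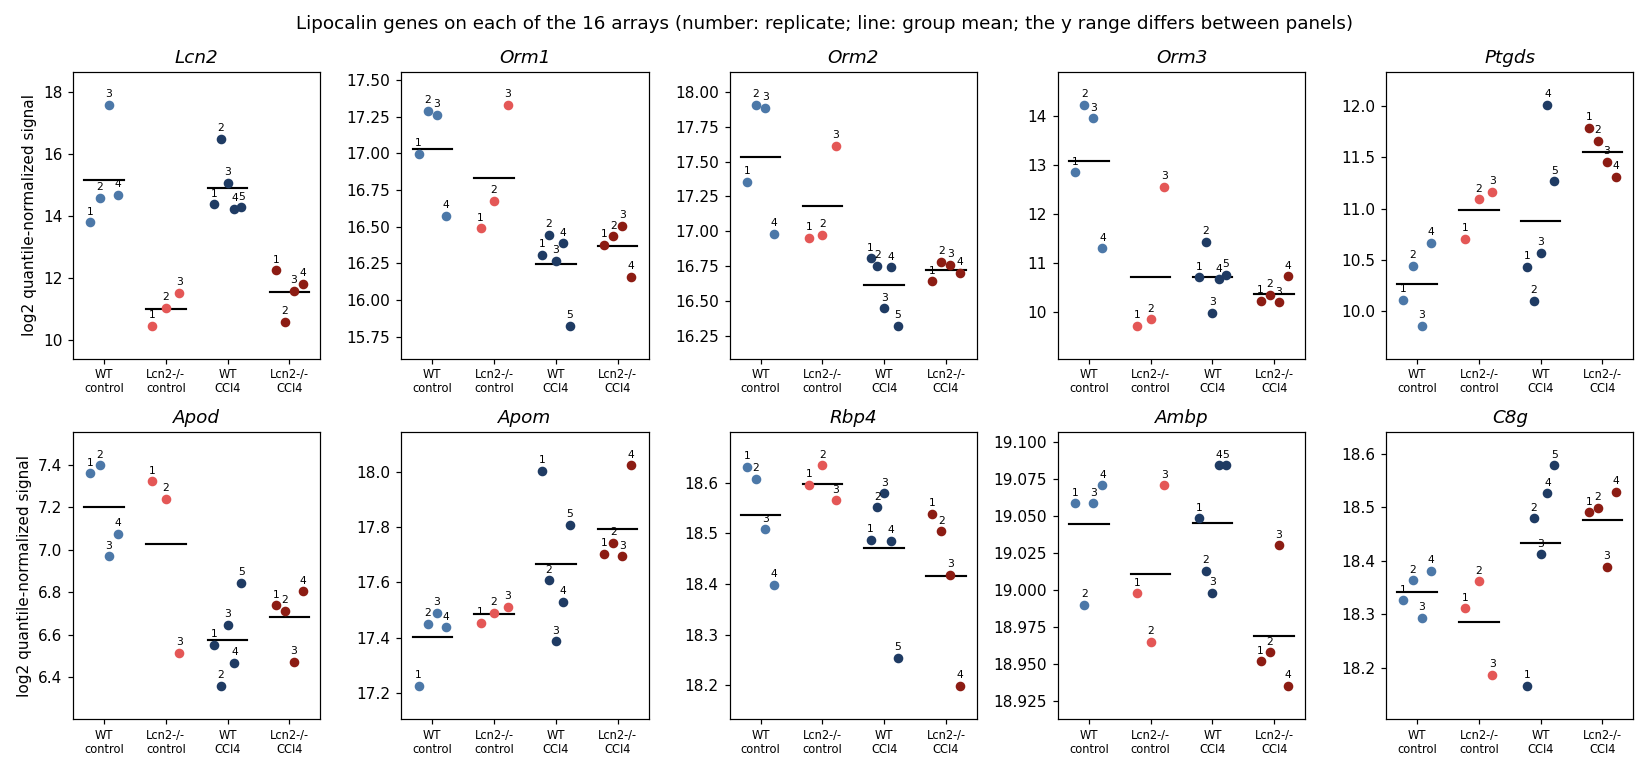
Level of each of the 10 lipocalin genes (y axis, log2 quantile-normalized signal, with its own range in each panel) on the 16 arrays in their 4 groups (x axis); each point is an array numbered by its replicate and each line a group mean. Lcn2 separates by genotype, with every Lcn2-/- array at or below 12.25 and every WT array at or above 13.80, and the Orm genes are lower under CCl4 in WT.

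For the plasma carriers Apom, Rbp4 and Ambp and the complement chain C8g, the intervals of the genotype difference were narrow. Over these 4 genes and both treatments they lay between −0.28 and 0.39 in the quantile-normalized fit. The signs depended on the setting: with the row of the slide as a block Apom was −0.33 in controls and −0.21 under CCl4 and C8g was 0.28 in controls, and with 75th percentile scaling Rbp4 was 0.20 under CCl4 and C8g 0.14 in controls, none past the threshold. The Apom levels ran from 17.23 to 18.02 over the 16 arrays, those of Rbp4 from 18.20 to 18.63, those of Ambp from 18.94 to 19.08 and those of C8g from 18.17 to 18.58. In each of these genes the WT and Lcn2-/- arrays overlapped in controls and under CCl4. Quantile normalization limits how far the brightest probes can move, and the Ambp probe came within 0.06 of the highest value on an array. The C8g probe used (chr2:25354176-25354235, mm9) lies 6.89 Mb from the Lcn2 probe, and the other C8g probe, from base 352 of the transcript, gave 0.15 in controls and 0.31 under CCl4 where the probe used gave −0.05 and 0.04. The 2 C8g probes thus differed in sign in controls and neither passed. Apod, a lipid carrier better known from brain and breast, differed by −0.18 in controls (95% interval −0.58 to 0.23) and by 0.11 under CCl4 (95% interval −0.25 to 0.46).

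The response to CCl4 was next compared within each genotype. In WT 4 of the 10 members passed the threshold, where 16.7% of all genes did, and all 4 were lower: Orm1, Orm2, Orm3 and Apod. In Lcn2-/- 0 of the 10 passed in limma, where 12.1% of all genes did, and 1 of the 10 (Apom) had an unadjusted p under 0.05, as 27% of all genes had. The median response of the 10 members was −0.17 in WT and −0.11 in Lcn2-/-, against −0.03 and −0.02 for all genes. A response past the threshold in WT alone is not shown to differ from that in Lcn2-/-, and the test of the difference is given below for each gene.

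The 3 orosomucoids fell under CCl4 in WT. The WT CCl4 arrays measured 16.31, 16.45, 16.27, 16.39 and 15.82 for Orm1, all below the WT controls given above. They measured 16.81, 16.75, 16.45, 16.74 and 16.32 for Orm2, again all below the WT controls. For Orm3, WT control 4 at 11.30 lay below WT CCl4 2 at 11.43, so the groups overlapped. Orm1 fell by 0.79 (SE 0.192, limma adjusted p 0.0121), Orm2 fell by 0.92 (SE 0.196, limma adjusted p 0.0052) and Orm3 fell by 2.37 (SE 0.611, limma adjusted p 0.0162). Orm1 and Orm2 passed in all 16 fits that left out 1 array, and Orm3 in 15, its call being lost without WT control 2 (limma adjusted p 0.0652). Without WT control 3, Lcn2-/- control 3 and WT CCl4 2 together, chosen after the values were seen, the changes of Orm1, Orm2 and Orm3 were −0.76, −0.83 and −2.26 and all 3 passed.

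In Lcn2-/- the Orm1 arrays under CCl4 measured 16.38, 16.43, 16.51 and 16.16, and the Orm2 arrays 16.64, 16.78, 16.76 and 16.70. All 4 Orm2 arrays lay below the 3 Lcn2-/- controls, while Orm1 overlapped with Lcn2-/- control 1. The changes were −0.46 for Orm1 (95% interval −0.93 to 0.01, limma adjusted p 0.191), −0.46 for Orm2 (95% interval −0.94 to 0.02, limma adjusted p 0.203) and −0.33 for Orm3 (95% interval −1.82 to 1.16, limma adjusted p 0.805). Without both controls numbered 3 the Orm3 change was 0.59 and those of Orm1 and Orm2 were −0.21 and −0.24. The difference between responses (interaction, Lcn2-/- minus WT) was 0.32 for Orm1 (95% interval −0.30 to 0.95), 0.46 for Orm2 (95% interval −0.18 to 1.10) and 2.04 for Orm3 (95% interval 0.06 to 4.03, unadjusted p 0.0443, limma adjusted p 0.9999). Of the 10 members 0 passed the interaction in limma, where 0.0534% of all genes did, and Orm3 was the 1 with an unadjusted p under 0.05, as 3.31% of all genes had.

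Apod fell in WT by 0.63 (SE 0.165, limma adjusted p 0.0184). Its WT controls measured 7.36, 7.40, 6.97 and 7.08, and its WT CCl4 arrays 6.55, 6.36, 6.65, 6.47 and 6.84, without overlap. The call was lost without WT control 1 (limma adjusted p 0.0672) or WT control 2 (limma adjusted p 0.0677). The Lcn2-/- controls measured 7.32, 7.24 and 6.51, and the Lcn2-/- CCl4 arrays 6.74, 6.71, 6.47 and 6.80. Lcn2-/- control 3 sat among the CCl4 arrays, and the change of −0.34 did not pass (limma adjusted p 0.262). Without Lcn2-/- control 3 Apod fell by 0.60 in Lcn2-/- and passed (limma adjusted p 0.0309). The interaction of Apod was 0.28 (95% interval −0.25 to 0.82). A second Apod probe was above background on 0 arrays.

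**Figure D3:**
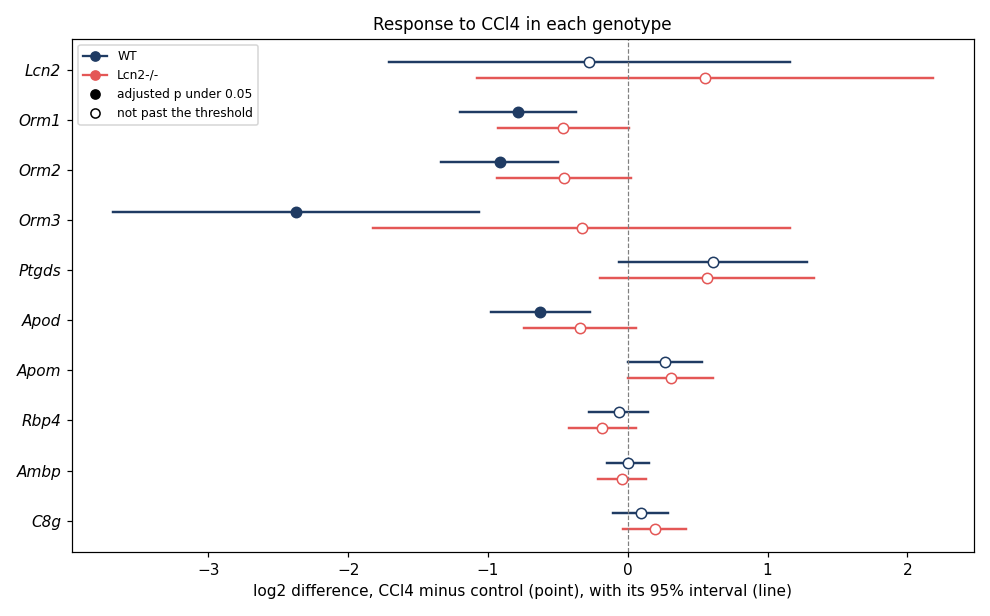
Response to CCl4 (x axis, log2, CCl4 minus control) of the 10 lipocalin genes (y axis) in WT (dark blue) and Lcn2-/- (red); points are limma estimates, lines are 95% intervals and filled points passed the adjusted threshold. The filled points are Orm1, Orm2, Orm3 and Apod in WT, between −0.63 and −2.37, and the intervals of the genotypes overlap for each gene.

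With slide as a fixed block, where WT CCl4 1 alone separates slide from treatment, these 4 changes in WT were −0.72 for Orm1, −0.73 for Orm2, −2.38 for Orm3 and −0.65 for Apod, and the calls were lost (limma adjusted p values from 0.219 to 0.237). On slide 1 itself WT CCl4 1 lay below 4 of 4 WT controls in each of the 4 genes.

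The 6 other members did not pass in either response. Lcn2, which is induced in many models of liver injury, had no call under CCl4 at this time point. Its response in WT was −0.27 (95% interval −1.71 to 1.16), and without WT control 3, the highest array, it was 0.53 (limma adjusted p 0.506). The Lcn2 signal in Lcn2-/- changed by 0.55 (95% interval −1.08 to 2.18). Slide as a fixed block gave −0.78 in WT and −0.09 in Lcn2-/- for Lcn2, without a call. Ptgds changed by 0.61 in WT (95% interval −0.07 to 1.28) and by 0.57 in Lcn2-/- (95% interval −0.20 to 1.33). With slide as a fixed block these changes of Ptgds were 0.16 in WT and 0.01 in Lcn2-/-. Apom changed by 0.27 in WT and 0.31 in Lcn2-/- (limma adjusted p 0.163 and 0.181), and its 4 Lcn2-/- CCl4 arrays lay above the 3 Lcn2-/- controls. With slide as a fixed block Apom was 0.60 in WT and 0.72 in Lcn2-/-, neither past the threshold. C8g changed by 0.09 and 0.19, Rbp4 by −0.06 and −0.18, and Ambp by 0.00 and −0.04. Scaling to the 75th percentile, which moved the median of all genes to −0.16 in WT and −0.14 in Lcn2-/-, put Ambp at −0.56 and Rbp4 at −0.55 in WT and both passed. It also turned Apom to −0.08 in WT and −0.02 in Lcn2-/-, and C8g to −0.42 and −0.25, none of which passed, so the responses of these bright probes hold only relative to the quantile normalization. The genotype difference of Ambp also changed sign there, to 0.16 in controls and 0.16 under CCl4.

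Genes that work with the members were read next, from lists chosen with earlier results of these data known. In the response to CCl4, 4 of 17 partners passed in WT and 2 of 17 in Lcn2-/-, where 16.7% and 12.1% of all genes did. Of 8 genes of receptors and uptake, 1 passed in each genotype. Slide as a fixed block kept 1 of the 4 partner calls in WT (Hpgds) and 0 of the 2 in Lcn2-/-. It kept 0 of 1 in each genotype among the receptors. Of 8 genes of receptors and uptake tested, 1 passed between genotypes in each treatment, where 0.517% of all genes passed in controls and 0.649% under CCl4. This was Lrp2, the endocytic receptor megalin that takes up lipocalin 2 and other carriers. It measured 6.46 ± 0.70 (SD) in WT control and 8.98 ± 0.89 in Lcn2-/- control, 6.35 ± 0.82 in WT CCl4 and 8.52 ± 0.46 in Lcn2-/- CCl4. Lrp2 was higher in Lcn2-/- by 2.52 in controls and by 2.17 under CCl4, both with a limma adjusted p of 0.048. Each call was lost in 13 of 16 fits without 1 array (limma adjusted p up to 0.215 and 0.144), and both were lost under the replicate block (limma adjusted p 0.093 in controls and 0.075 under CCl4). Over both treatments the rise was 2.35 (limma adjusted p 0.002), which passed in all 16. With slide as a fixed block both calls of Lrp2 were kept, but that block does not separate genotype from the row of the slide. WT CCl4 1, the only WT array in the lower row, had the highest Lrp2 level of the WT CCl4 arrays, at 7.24. The lowest Lcn2-/- CCl4 array was at 8.14. The part of the row in the Lrp2 difference was not tested. Slc22a17, the other lipocalin 2 receptor on the list, differed by 0.02 in controls and −0.19 under CCl4. Amn, a partner of cubilin in uptake, rose under CCl4 by 1.38 in WT and 2.28 in Lcn2-/- (limma adjusted p 0.010 and 0.001). In Lcn2-/- 1 of 3 controls was well above background, so the size of that change is uncertain.

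Of 17 partners of the members tested, 0 passed in limma between genotypes in controls, under CCl4 or by interaction, and 1, 2 and 0 of them had an unadjusted p under 0.05, as 8.31%, 13.6% and 3.31% of all genes had. Ttr, transthyretin, which carries Rbp4 in plasma, differed by −0.03 in controls and −0.16 under CCl4. C8a and C8b, the other chains of C8, fell under CCl4 in WT by 0.73 (limma adjusted p 0.014) and 1.25 (limma adjusted p 0.001). In Lcn2-/- C8b fell by 1.03 (limma adjusted p 0.016), while C8a was −0.59 there (limma adjusted p 0.084). The call of C8a in WT was lost without 1 array of 16 and that of C8b in Lcn2-/- without 2. C8g had no call in WT with either probe, the probe used giving 0.09 and the other −0.27 (limma adjusted p 0.367). In Lcn2-/- the other C8g probe gave −0.11. The inter-alpha-trypsin inhibitor heavy chains Itih1, Itih2, Itih3 and Itih4, to which bikunin is joined, changed by −0.05, 0.23, 0.10 and 0.00 in WT and by 0.05, 0.27, 0.18 and −0.02 in Lcn2-/-, none past the threshold. Hpgds, the other prostaglandin D2 synthase, rose by 1.82 in WT and 1.78 in Lcn2-/- (limma adjusted p 0.000238 and 0.001), and the size in Lcn2-/- is uncertain because 1 of 3 controls was well above background. Mmp9, the gelatinase that lipocalin 2 binds, was well above background on 1 of 4 WT control and 4 of 5 WT CCl4 arrays and rose by 1.64 in WT (limma adjusted p 0.043), a size uncertain for the same reason and a call lost in 12 of 16 fits without 1 array.

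The orosomucoids are acute-phase genes, so the other acute-phase genes were set beside them. Of 24 tested, which do not include Saa1, 2 passed in WT and 1 in Lcn2-/-, below the 16.7% and 12.1% of all genes, with a median response of −0.02 and 0.06, and 0 passed in limma between genotypes in controls or under CCl4, where 0 and 1 had an unadjusted p under 0.05, as 8.31% and 13.6% of all genes had. Saa2, serum amyloid A2, fell by 1.48 in WT (limma adjusted p 0.032, lost in 6 of 16 fits without 1 array) and was −1.41 in Lcn2-/- (limma adjusted p 0.080). Apoa4 rose by 2.66 in WT and 2.10 in Lcn2-/- (limma adjusted p 0.001 and 0.010). With slide as a fixed block the call of Apoa4 in WT was kept, while those of Apoa4 in Lcn2-/- (limma adjusted p 0.114) and Saa2 in WT (limma adjusted p 0.18) were lost. Hp, haptoglobin, changed by −0.03 and −0.10, and Saa3 by 0.16 and 1.95, without passing. Of the 13 hepatocyte nuclear factors 1 passed in WT, Nr5a2, at −0.55, a share below the 16.7% of all genes. Its call was lost in 2 of 16 fits without 1 array and with slide as a fixed block (limma adjusted p 0.149). The neutrophil markers, of which 6 of 12 were well above background on all arrays and Cxcr2, Ltf, Mmp8, Mpo, Ngp and Retnlg were not, rose for 7 of 12 in WT and 2 of 12 in Lcn2-/-, where 16.7% and 12.1% of all genes passed in either direction. In Lcn2-/- 0 of the 2 calls were kept in all 16 fits without 1 array or with slide as a fixed block (limma adjusted p 0.208 and 0.288). In WT 2 of the 7 calls were kept in all 16 fits without 1 array and 0 with slide as a fixed block (limma adjusted p values from 0.0872 to 0.38). The mean level of that list ranged from 8.18 to 10.31 in WT control, 10.53 to 11.26 in WT CCl4, 7.71 to 10.97 in Lcn2-/- control and 10.04 to 10.52 in Lcn2-/- CCl4. Its summed level ranged from 16.70 to 17.19, 16.47 to 17.56, 16.82 to 17.38 and 16.44 to 16.96 in the same order, and the part of it in the member results was not tested.

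The rest of the lipocalin family gave a wider picture of the response to CCl4. Of 28 further family genes looked for, 13 were tested. In WT 8 of the 13 fell, and in Lcn2-/- 4 fell, where 16.7% and 12.1% of all genes were past the threshold in either direction. With slide as a fixed block 5 of the 9 calls in WT and 2 of the 5 in Lcn2-/- were kept, Lcn8 among both. In each genotype 1 gene, Lcn8, was past the threshold as higher, but it passed the dim-probe filter only through its CCl4 arrays, so that call is no support for a rise in the family. Their median response was −0.44 in WT and −0.33 in Lcn2-/-, and 0 of 13 passed in limma between genotypes or by interaction. At an unadjusted p under 0.05 there were 0 in controls, 1 under CCl4 and 0 by interaction, against the same shares of all genes as for the partners. Obp2a, an odorant-binding protein, fell by 4.23 in WT and by 4.61 in Lcn2-/- (limma adjusted p 0.001 and 0.002). It measured 9.86 ± 1.21 in WT control and 5.63 ± 0.83 in WT CCl4, with 4 of 5 CCl4 arrays well above background, and 10.39 ± 1.81 in Lcn2-/- control and 5.78 ± 0.86 in Lcn2-/- CCl4, with 3 of 4 so. With slide as a fixed block the call of Obp2a in Lcn2-/- was lost (−5.43, limma adjusted p 0.0834).

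The major urinary proteins, pheromone carriers secreted by the male liver, made up most of the rest. Mup6 fell by 1.49 and 1.27 and Mup21 by 1.43 and 1.12 in WT and Lcn2-/- (limma adjusted p up to 0.006), and Mup21 in Lcn2-/- was −1.77 with slide as a fixed block. With that block the call of Mup6 in Lcn2-/- was lost (−1.33, limma adjusted p 0.164). The genes named from here to Lcn6 were added after their values were seen. Mup5 fell by 0.96 in WT (limma adjusted p 0.001), from 18.77 ± 0.07 to 17.81 ± 0.42, and Mup3, Mup4 and Mup20 by 0.33, 0.38 and 0.34, calls that were lost in 11, 6 and 6 of 16 fits without 1 array. Mup genes are near-identical copies, and which of them a probe reads is uncertain. Lcn6 fell by 0.70 in WT and 0.71 in Lcn2-/- (limma adjusted p 0.022 and 0.047), lost in 4 and 10 of 16 fits, and with slide as a fixed block it was −0.45 and −0.39 (limma adjusted p 0.455 and 0.666). Lcn8 was not well above background on any control array and was so on all 5 WT CCl4 and all 4 Lcn2-/- CCl4 arrays. With controls set no lower than the lowest signal called above background on each array, it was 2.55-fold higher in WT and 2.63-fold higher in Lcn2-/-. A probe that is not called can lie above that lowest signal, so these are not firm lower limits and the size is uncertain.

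**Figure D4:**
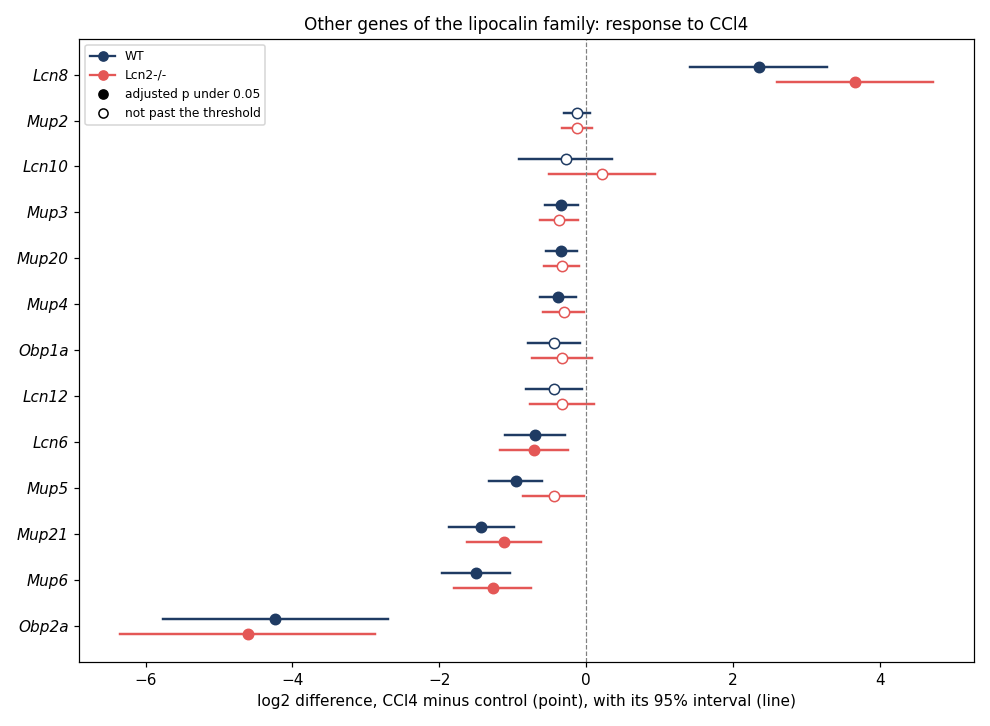
Response to CCl4 (x axis, log2, CCl4 minus control) of 13 further lipocalin genes (y axis, ordered by the WT response) in WT (dark blue) and Lcn2-/- (red), with limma estimates as points, 95% intervals as lines and filled points past the adjusted threshold. Obp2a lies lowest, at −4.23 and −4.61, and the Lcn8 points rest on control signals at background.

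Likeness of pattern was described by Pearson's r, a description over arrays that share their groups, slides and normalization. Over all 16 arrays the gene most like Orm1 was Orm2 and the reverse (r = 0.961), and the gene most like Orm3 was Mrap2 (r = 0.955), with Oscar the third (r = 0.901). Among the nearest genes of the other members were Rps9 and Eef1g for Apom (0.922 and 0.920), Gstp2 for Rbp4 (0.959), Tfg for Ambp (0.906), Azgp1 for C8g (0.893), E030025P04Rik for Apod (0.940) and D17892 for Ptgds (0.865). For Lcn2, over the 9 WT arrays, they were A430104N18Rik (0.987), Adgre5 (0.985), H2-Q8 (0.978), Fgd2 (0.977) and Clec4a1 (0.972), with WT control 3 the highest array in Lcn2.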

How the data were processed

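Total RNA of whole mouse liver was labelled with Cy3 and hybridised to Agilent SurePrint G3 mouse arrays in 1 colour, 16 arrays in all. Per the file headers, the deposited intensity values came from Feature Extraction, whose processed signal is background-subtracted and detrended within each array. The authors' deposited log2 table holds the same arrays, and 99.7% of its values lay within 0.05 of log2(median signal minus background) after quantile normalization. The submitters' processing notes name limma. Other deposited columns used are flags for spots well above background, saturated or outlying, probe type and position, with probe coordinates in mm9.

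Control spots and outlier-marked spots were left out, spots of a probe were averaged, and log2 processed signals were quantile-normalized over the 16 arrays. A probe was kept if 3 or more arrays had it well above background (33014 probes), and the probe with the highest mean stood for each of 24357 genes. No gene spot was saturated. Of 55681 probes, 26056 (46.8%) were matched to a RefSeq symbol by accession and the others kept the file's name. Precision is limited by the number of arrays.

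A model with 4 group means was fitted over all arrays with limma 3.58.1 in R 4.3.3, and 6 contrasts were adjusted by Benjamini-Hochberg over all genes tested. The fit was tested on simulated data. Groups came from the sample labels. The members and gene lists were chosen with earlier results of these data known. All 10 members are named, with up to 4 genes of each list that moved most past the threshold, fixed partners of the members, and the genes of highest Pearson's r. Sequences came from the probe tables of the arrays and from RefSeq (GRCm38.p6), which gave upstream sequence for 9 of 10 members. Deviations of same-numbered WT and Lcn2-/- controls from their group means had r = 0.233, 0.368 and 0.552, while under CCl4 r ran from −0.22 to 0.25. Differently numbered arrays were not compared, and the labels do not say that numbers pair arrays. The replicate block was a fixed factor over all arrays, so it tied same-numbered arrays of every group, not the controls alone. Alternatives covered scaling, background, dim-probe filter, probe choice, array weights, slide, row of the slide, replicate block, the deposited table and leaving out arrays.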

Additional observations from a re-analysis of the deposited data

Results flagged for a closer look

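In groups of 4 or 5 arrays, 2 of 30 tested sets of member values held an array far from the rest by Dixon's ratio, where chance gives about 1 in 20. Groups of 3 arrays were not tested. Apom in Lcn2-/- CCl4 4 was 18.02, against 17.69 to 17.74 on the other 3 arrays of its group. Ambp in WT control 2 was 18.99, against 19.06 to 19.07 on the other 3 WT controls.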

How the results depend on the processing

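Over the single members, 1684 of the values recomputed under the alternatives kept their direction and side of the threshold or moved by less than the replicate spread, 29 lost a call, 12 gained one, 30 moved and 1 reversed. The reversed value was Ambp in the WT response, at −0.56 with 75th percentile scaling (limma adjusted p 0.0238). The number of members past the threshold in the Lcn2-/- response was 1 with 75th percentile scaling (Orm1), and 1 with array weights, without both controls numbered 3, and without those and WT CCl4 2, an alternative chosen after seeing the data (Apod each time). In the WT response it was 0 with slide as a fixed block. Between genotypes under CCl4 it was 0 with no filter on dim probes, slide as a fixed block, the row of the slide as a block, and the replicate block, where Lcn2 was −3.48 (limma adjusted p 0.0762). In controls it was 2 with array weights, 0 with the row as a block and 0 with the replicate block. Over both treatments it was 2 with array weights and without both controls numbered 3 (Lcn2 and Orm3), and 0 with the row as a block, where Lcn2 was −3.16 (limma adjusted p 0.466). The replicate block changed no other call of a member beside those of Lcn2 under CCl4 and in controls. Of all genes, array weights put 6975 past the threshold in the Lcn2-/- response, and 1253 in controls and 2156 over both treatments between genotypes. The main fit gave 2958, 126 and 566 in that order. With the row as a block 48 genes passed between genotypes in controls and 82 over both treatments.

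Leaving out 1 array at a time gave 2 to 4 members in the WT response, 0 to 1 in the Lcn2-/- response, 0 to 1 between genotypes under CCl4, 0 to 2 in controls, 1 to 2 over both treatments and 0 by interaction. Row of the slide and genotype are separated by WT CCl4 1 alone, as are slide and treatment. With 3 to 5 arrays a group, a missed threshold does not show that levels were equal.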

Other observations

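The intracellular lipid-binding proteins, which share the barrel fold but stay inside the cell, also moved under CCl4. Of 9 tested, 4 rose and 1 fell in WT, and 2 rose and 1 fell in Lcn2-/-, where 16.7% and 12.1% of all genes passed. With slide as a fixed block 1 of the 5 calls in WT (Rbp7) and 0 of the 3 in Lcn2-/- were kept, and Fabp3 was 1.64 in WT and 1.21 in Lcn2-/- (limma adjusted p 0.0757 and 0.348). Fabp3, the fatty acid carrier of heart muscle, rose by 2.30 in WT and 2.04 in Lcn2-/- (limma adjusted p 0.000196 and 0.002), and Fabp4, that of fat cells and macrophages, by 0.97 and 1.24. Rbp7 rose by 1.89 in WT, a call lost in 7 of 16 fits without 1 array, and was 3.79 with slide as a fixed block. Fabp2, the intestinal fatty acid carrier, was lower in Lcn2-/- than in WT by 0.72 under CCl4 (limma adjusted p 0.015). It was the 1 of 9 past the threshold there, where 0.649% of all genes passed, and 0 of 9 passed in controls, where 0.517% did. The part of the row of the slide in the Fabp2 difference was not tested. The Fabp2 call was lost in 2 of 16 fits without 1 array and with the replicate block (limma adjusted p 0.063).

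Of 15 genes of acute-phase signalling, 3 rose and 1 fell in WT, and 1 rose and 1 fell in Lcn2-/-, beside the 16.7% and 12.1% of all genes that passed. Slide as a fixed block kept 1 of these calls in WT (Lifr) and 0 in Lcn2-/-. Osmr, the oncostatin M receptor, rose by 1.30 and 0.87, the latter lost in 12 of 16 fits without 1 array. Lifr, the leukemia inhibitory factor receptor, fell by 1.38 and 0.79, the latter lost in 6 of 16. Cebpd, a C/EBP factor of the acute phase, had a WT rise of 1.04 (limma adjusted p 0.039), a call lost in 6 of 16, and a value of 0.18 in Lcn2-/-. Between genotypes 0 of the 15 passed in controls or under CCl4. Over both treatments 2 were higher in Lcn2-/-, Il6ra by 0.71 and Lifr by 0.65, where 2.32% of all genes passed. Each call was lost in 11 of 16 fits without 1 array, and with slide as a fixed block or the replicate block. There 7 of 15 had an unadjusted p under 0.05 in limma, as 16.7% of all genes had. The part of the row of the slide in the Il6ra and Lifr differences was not tested. Of 12 fibroblast and stellate cell markers, 10 rose under CCl4 in WT and 9 in Lcn2-/-, where 16.7% and 12.1% of all genes passed. Among them was Col1a1, by 3.49 and 4.21, and slide as a fixed block kept 8 and 6 of these calls.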
